A study of Homo sapiens with 33 samples.

Results

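Fibronectin and 9 matricellular and microfibril genes were followed in RNA-seq libraries of mesothelial cell lines treated with palbociclib. They were chosen by name: FN1, TNC, THBS1, THBS2, SPARC, SPP1, POSTN, FBN1, FBLN1 and EFEMP1. All 10 were found among the 58302 genes of the matrix, and all 10 were among the 17803 genes that reached 100 CP20M in at least 1 library and were tested. CP20M is the read count of a gene scaled by the authors to 20000000 reads per library. H2052, H2452, H28 and MSTO-211H are malignant pleural mesothelioma (MPM) lines that are sensitive to palbociclib, an inhibitor of the cell cycle kinases CDK4 and CDK6. The 2 resistant lines are MPP89, an MPM line in which RB1 is mutated, and MeT-5A, which derives from mesothelial cells and carries SV40. Controls were kept in 0.1% DMSO and treated cells in palbociclib at 1 µM, for 9 or 10 days in either case. In the washout arm of the sensitive lines palbociclib was withdrawn for 48 h after 10 days of treatment. Each sensitive line had 1 experiment of 10 days, that with the washout. All other experiments, including every experiment of the resistant lines, were of 9 days. There were 2 pairs of DMSO and palbociclib libraries of H2052 and MPP89, 3 of H2452, H28 and MSTO-211H, and 1 of MeT-5A, together with 1 washout library per sensitive line and 1 untreated library of MeT-5A. A pair is the DMSO and the palbociclib library of the same experiment. P-values within single lines, and in F tests and level comparisons among lines, therefore measure the spread between experiments with the same cell line. Where pairs of several lines were pooled, they measure a mix of this spread and of differences in response between lines. For the washout comparisons, with 1 library of each condition per line, and with line means as units, they measure the spread between lines.

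The extracellular matrix is a network of secreted proteins to which cells attach. Fibronectin (FN1) is assembled into fibrils by integrins and serves as a scaffold for other matrix proteins. The matricellular proteins (tenascin C, the thrombospondins, SPARC, osteopontin and periostin) build little structure themselves, but bind matrix, growth factors and cell surface receptors and change how cells adhere. Fibrillin 1 (FBN1) forms the microfibrils that carry elastin and latent TGF-beta, and the fibulins FBLN1 and EFEMP1 bind to elastic fibres and basement membranes. Mesothelial cells secrete many of these proteins, and EFEMP1 (fibulin-3) and osteopontin (SPP1) have been studied as blood markers of mesothelioma.

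The depth of 22 libraries could be estimated from whole numbers that the scaled values skip and lay between 12774000 and 19597000 reads, so that 1 read was worth up to 1.57 CP20M. The 10 proliferation genes fixed as a check of the labels were all lower with palbociclib over the sensitive lines (median log2 difference -2.62), and none was called in the resistant lines. Of 14 mesothelial markers, 6 to 13 reached 100 CP20M in the libraries of each line and condition, fewest in H28, where mesothelin (MSLN) was at 15 CP20M or less in every library. Leukocyte markers summed to 1132 CP20M or less in all libraries, with CD3E at 0. Their sums were highest in H2452, at 139 to 370 CP20M in DMSO and 287 to 1132 CP20M in palbociclib. The 1 leukocyte marker that was tested was called higher with palbociclib in that line (log2 difference 1.20). Replicate 2 of H2452 stood apart from the other replicates in both treatments, with 717 genes in DMSO and 870 in palbociclib differing over 2-fold from their mean. In MSTO-211H replicate 2 had 653 such genes in DMSO and 1009 in palbociclib, but replicate 1 had 591 and 765. In H28 replicate 2 had 470 in DMSO, near the 459 of replicate 3, and 690 in palbociclib, against 452 in replicate 3. In these bulk libraries fewer cells expressing a gene and less RNA per cell cannot be told apart.

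The sequences upstream of FN1, THBS1 and SPARC, which rose over the sensitive lines in every alternative analysis, and of TNC, which moved in opposite directions in different lines, are shown for reference. They come from the RefSeq promoter windows of GRCh38.p14, read 5′ to 3′ on the strand of the gene, and are limited to bases outside the annotated gene. Capitals mark matches on either strand to the motifs searched. The GC box was searched as GGGCGG. The CCAAT box was searched by the letters of its name. The TATA box was searched as TATAAA and the cAMP response element as TGACGTCA. The letters of the AP-1 site were TGANTCA. Those of the TEAD site were GGAATG and those of the SMAD site GTCTAGAC. FN1 lies upstream at chr2:215436074-215436318, THBS1 at chr15:39580829-39581078, SPARC at chr5:151686976-151687165 and TNC at chr9:115118208-115118407.
FN1: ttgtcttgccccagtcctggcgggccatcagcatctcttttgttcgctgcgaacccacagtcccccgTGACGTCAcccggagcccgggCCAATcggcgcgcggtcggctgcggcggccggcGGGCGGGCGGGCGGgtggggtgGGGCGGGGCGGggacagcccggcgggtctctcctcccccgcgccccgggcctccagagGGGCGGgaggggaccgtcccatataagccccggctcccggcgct
THBS1: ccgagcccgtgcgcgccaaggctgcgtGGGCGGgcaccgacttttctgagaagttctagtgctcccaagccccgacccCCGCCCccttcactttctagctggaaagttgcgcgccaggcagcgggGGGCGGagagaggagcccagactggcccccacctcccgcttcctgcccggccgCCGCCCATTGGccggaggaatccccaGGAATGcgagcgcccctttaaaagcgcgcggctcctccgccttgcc
SPARC: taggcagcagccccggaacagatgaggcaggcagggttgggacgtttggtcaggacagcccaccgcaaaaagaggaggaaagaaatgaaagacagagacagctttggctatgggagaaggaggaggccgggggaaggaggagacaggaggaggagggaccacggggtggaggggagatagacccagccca
TNC: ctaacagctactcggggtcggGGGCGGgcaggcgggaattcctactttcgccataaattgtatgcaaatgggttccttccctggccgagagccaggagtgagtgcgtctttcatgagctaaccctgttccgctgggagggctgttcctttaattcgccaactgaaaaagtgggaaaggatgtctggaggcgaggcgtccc
Within the 250 bases before the start site, the window of FN1 held 6 GC boxes, some of them overlapping, with 1 CCAAT box and 1 cAMP response element. That of THBS1 held 4 GC boxes, 1 CCAAT box and 1 TEAD site, and that of TNC held 1 GC box. Of 27305 promoters with such a window, 42.3% held a GC box, 33.04% a CCAAT box, 1.77% a cAMP response element and 11.9% a TEAD site. The cAMP response element of FN1 was thus among the rarer matches. The windows of SPARC and FBN1 each held 1 TEAD site and that of THBS2 held 2 with 1 TATA box, and the site of SPARC lies in the part not shown. POSTN had 1 AP-1 site and 2 TATA boxes, FBLN1 had 1 GC box, and SPP1 had none of these motifs. The windows of FBN1 and FBLN1 had 0 of 250 bases outside the annotated gene, and that of THBS2 had 46. The matches of FBN1, FBLN1 and THBS2 therefore lie inside the annotated gene, as does the TATA box of POSTN at -29. No promoter window of EFEMP1 was used.

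Over the 11 pairs of sensitive lines, 7 of the 10 genes rose with palbociclib and none was called lower. The genes that rose were FN1, THBS1, FBN1, SPP1, SPARC, EFEMP1 and THBS2, by 0.65 to 1.96 on the log2(CP20M + 10) scale. TNC, POSTN and FBLN1 were not called. Among all 17803 genes, 5.58% were called higher and 9.37% lower, and the median log2 difference was 0.77 for the 10 genes and -0.11 for all genes. A gene was called where limma's moderated test with the experiment as a block gave a Benjamini-Hochberg FDR under 0.05 and the fold change was above 1.5 or below 1/1.5. When libraries were scaled by median-of-ratios, 9.25% of all genes were called higher and 5.42% lower, which moved the share of higher calls from 37.3% to 63% and the median of all genes to 0.04. The same 7 genes were called higher with that scaling, with a median of 0.94 over the 10 genes. FN1, THBS1 and SPARC were called in 24 of 24 alternative analyses. With the 4 line means as units, 4 genes were called, and THBS2 (adjusted p = 0.10014), FBN1 (adjusted p = 0.0969) and EFEMP1 (adjusted p = 0.114) were not. In that fit 482 of 17803 genes were called higher, against 994 in the main fit.

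**Figure D1:**
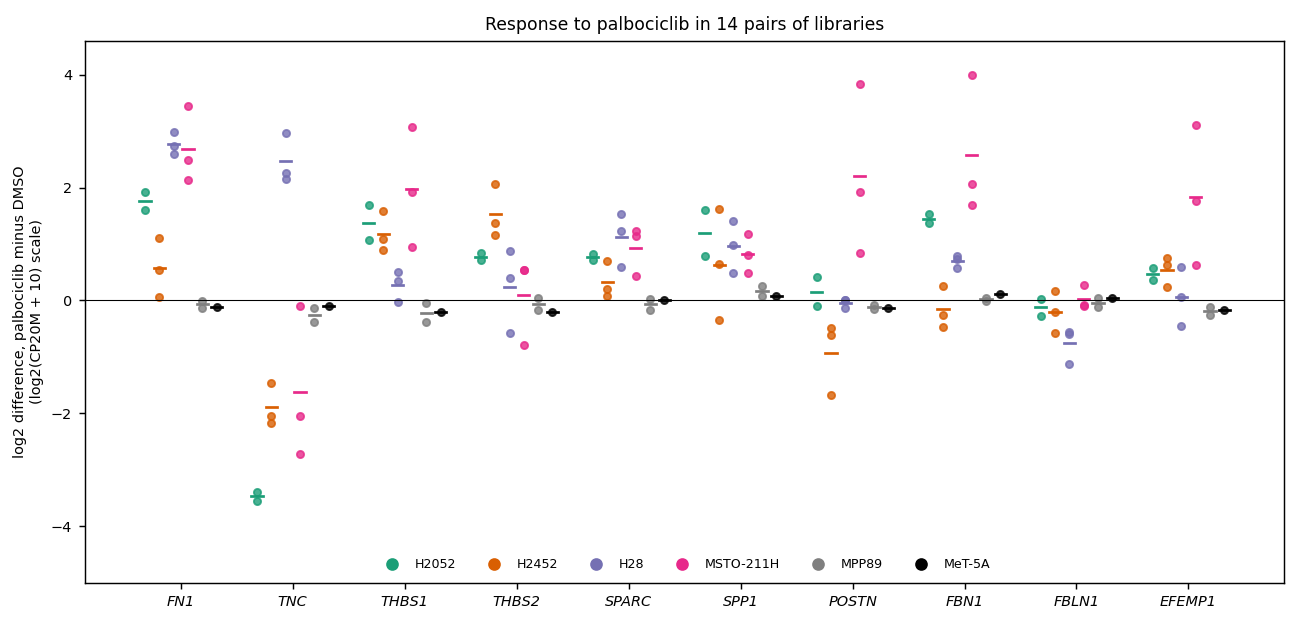
Log2 difference between palbociclib and DMSO (y axis, log2(CP20M + 10) scale) for each of 14 pairs of libraries (points) and the mean of each line (short bars), for the 10 genes on the x axis. FN1 lay above 0 in 11 of 11 pairs of sensitive lines, TNC was above 0 in 3 pairs, all of H28, and the points of MPP89 and MeT-5A stayed between -0.38 and 0.26.

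FN1 (ENSG00000115414, chromosome 2 from 215360440 to 215436073, minus strand, GRCh38) was higher with palbociclib in 11 of 11 pairs of sensitive lines, by 1.96 ± 0.27 (log2 ± SE, adjusted p = 8.58554e-05 in limma). In H28 its 3 DMSO libraries were at 17960, 5215 and 51392 CP20M and the palbociclib libraries of the same experiments were at 120336, 41466 and 308982 CP20M. The experiments differed in level and the groups overlapped, whereas every pair differed by 2.59 or more (2.77 ± 0.15, adjusted p = 0.0266). In MSTO-211H FN1 was at 639, 327 and 329 CP20M in DMSO and at 2848, 1872 and 3657 CP20M in palbociclib. These groups did not overlap, and the difference was 2.69 ± 0.29 (adjusted p = 0.0349). In H2052 the values were 35220 and 36465 CP20M in DMSO and 133255 and 110055 CP20M in palbociclib, again without overlap (1.76 ± 0.25, adjusted p = 0.0412). In H2452 they were 1295, 4423 and 1609 CP20M in DMSO and 1882, 4592 and 3492 CP20M in palbociclib. All 3 pairs of H2452 were higher with palbociclib, but by 0.05 in replicate 2, the experiment that stood apart, and the line did not pass the test (0.57 ± 0.22, adjusted p = 0.127). The response of FN1 differed among the 4 sensitive lines (F test in limma, adjusted p = 0.00172). FN1 reads made up as much as 1.54% of a library, that of H28 palbociclib replicate 3.

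**Figure D2:**
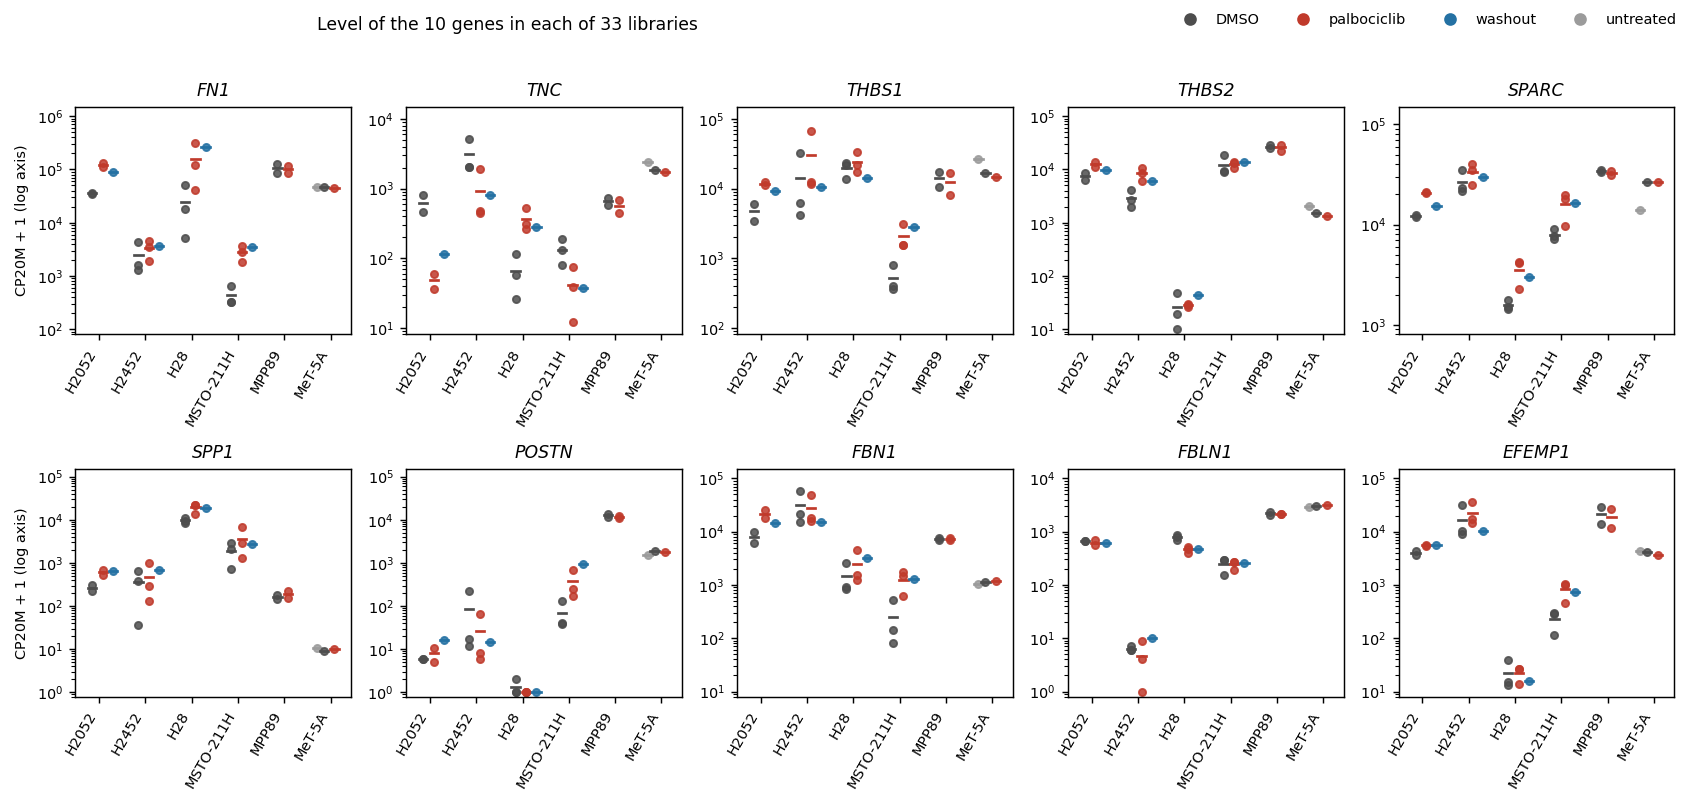
Level of each of the 10 genes (panels; y axis, CP20M + 1, log axis with its own range in each panel) in the 33 libraries, by line and colored by condition, with each library as a point and the group mean as a short bar. FN1 of MSTO-211H moved from 327 to 639 CP20M in DMSO up to 1872 to 3657 CP20M in palbociclib, while the DMSO and palbociclib points of MPP89 and MeT-5A lie side by side.

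TNC encodes tenascin C (ENSG00000041982, chromosome 9 from 115019575 to 115118207, minus strand), an oligomeric glycoprotein made in development and wound repair that can loosen cell adhesion to fibronectin. It fell in 2 lines and rose in 1. In H2052 it was at 461 and 799 CP20M in DMSO and at 35 and 59 CP20M in palbociclib (-3.47 ± 0.16, adjusted p = 0.0320). In H2452 it was at 2021, 5222 and 2042 CP20M in DMSO and at 482, 1883 and 446 CP20M in palbociclib (-1.89 ± 0.16, adjusted p = 0.0134). In H28 the direction was opposite, with 57, 25 and 112 CP20M in DMSO and 312, 263 and 534 CP20M in palbociclib (2.46 ± 0.21, adjusted p = 0.0266). The DMSO and palbociclib libraries did not overlap in any of these 3 lines. MSTO-211H had 79, 129 and 188 CP20M in DMSO and 73, 11 and 38 CP20M in palbociclib and was not called (-1.62 ± 0.58, adjusted p = 0.122). One of its pairs, replicate 1, differed by -0.10 only. The difference among the sensitive lines had the smallest adjusted p of the 10 genes (0.000252, F test). Over the 11 pairs TNC was not called (-0.92 ± 0.61, adjusted p = 0.231), and without H28 it was called lower (-2.19, adjusted p = 0.000757).

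The calls of each line are to be read against the share of all genes called in it. In H2052, 5 of the 10 genes were called higher and 1 lower, where 4.67% of all genes were called higher and 13% lower. The number called higher in H2052, the line with 2 pairs, dropped to 1 with a pseudocount of 1 (2.22% of all genes), to 1 without a filter (0.225%) and to 0 without a trend, where no gene of the matrix was called in either direction. In H2452, 2 were called higher and 1 lower (6.04% and 10.8% of all genes, 16.8% in either direction), in H28 5 higher and 1 lower (5.89% and 7.34%), and in MSTO-211H 3 higher and none lower (5.9% and 7.94%). With 1 pair left out in turn, which leaves 2, none of the 10 genes was called higher in H2452, H28 or MSTO-211H, but 8 of these 9 fits called none of the 17803 genes in either direction, so that they say nothing about the 10 genes. The exception, H2452 without replicate 2, called 3.11% of all genes higher and 5.75% lower, and of the 10 genes it called 1 lower. With genes filtered within the libraries of MSTO-211H, 7 of the 10 were called higher in that line, where 9.29% of 14403 genes were called higher. In the same line the 7 fibroblast markers, a list that holds DCN, LUM and fibrillar collagens, summed to 2244 to 5873 CP20M in DMSO and 10354 to 16649 CP20M in palbociclib, and the mesothelial markers to 45152 to 59683 and 113741 to 144297 CP20M. In H28 the fibroblast markers summed lower with palbociclib, to 114 to 339 CP20M in DMSO and 44 to 76 CP20M in palbociclib. The same held in H2052, with 6770 to 7000 and 5845 to 6407 CP20M. In H2452 the sums overlapped, at 4861 to 26396 and 2732 to 16539 CP20M. The part of these shifts in the result was not tested.

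The thrombospondins are calcium-binding glycoproteins that bind CD36 and CD47, and THBS1 also activates latent TGF-beta. THBS1 (ENSG00000137801, chromosome 15 from 39581079 to 39599466, plus strand) was higher in 10 of 11 pairs of sensitive lines, by 1.19 ± 0.22 (adjusted p = 0.000767). It was called in H2052, where 5935 and 3454 CP20M in DMSO stood against 12483 and 11115 CP20M in palbociclib (1.38 ± 0.19, adjusted p = 0.0411). In H2452 it was at 6196, 32192 and 4196 CP20M in DMSO and at 11487, 68395 and 12566 CP20M in palbociclib. Replicate 2 of this line was far above the others in both treatments, so that the groups overlapped although every pair was higher with palbociclib (1.19 ± 0.16, adjusted p = 0.0192). MSTO-211H went from 788, 397 and 363 CP20M in DMSO to 1527, 1539 and 3116 CP20M in palbociclib without overlap, but its pairs differed by 0.95 to 3.07, and it was not called (1.98 ± 0.44, adjusted p = 0.0556). H28 had 21934, 23518 and 13822 CP20M in DMSO and 21580, 33539 and 17470 CP20M in palbociclib, which overlapped (0.28 ± 0.14, adjusted p = 0.225). The F test among the sensitive lines gave an adjusted p of 0.0388.

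THBS2 (ENSG00000186340, chromosome 6 from 169215780 to 169254050, minus strand), which takes part in collagen fibril assembly and inhibits angiogenesis, was higher in 9 of 11 pairs (0.65 ± 0.21, adjusted p = 0.0214). It rose in H2452, from 2699, 4090 and 2009 CP20M to 6074, 10658 and 8472 CP20M (1.54 ± 0.20, adjusted p = 0.0185). It also rose in H2052, from 6241 and 8520 CP20M to 11194 and 13961 CP20M (0.78 ± 0.10, adjusted p = 0.0397). Neither line's groups overlapped. In MSTO-211H, where THBS2 was abundant, it was at 18408, 8993 and 9389 CP20M in DMSO and at 10630, 12998 and 13702 CP20M in palbociclib, and in H28 it did not exceed 48 CP20M in these libraries. Neither of these lines was called. Over the remaining pairs the difference was 0.32 without H2452 (adjusted p = 0.207) and 0.62 without H2052 (adjusted p = 0.0725), and it was below the fold limit without replicate 2 (0.58) or replicate 3 (0.51) of H2452.

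SPARC and SPP1 rose over the 11 pairs, each by less than 1 on the log2 scale. SPARC (ENSG00000113140, chromosome 5 from 151661096 to 151686975, minus strand), a collagen-binding protein of remodelling tissue, was higher in 11 of 11 pairs (0.79 ± 0.12, adjusted p = 0.000212). In H28 it was at 1777, 1505 and 1444 CP20M in DMSO and at 4196, 2284 and 4179 CP20M in palbociclib (1.12 ± 0.20, adjusted p = 0.0386). In H2052 it was at 11949 and 12452 CP20M in DMSO and at 21245 and 20533 CP20M in palbociclib (0.78 ± 0.12, adjusted p = 0.0426). The groups did not overlap in either line. MSTO-211H, with 8961, 7145 and 7714 CP20M in DMSO and 19898, 9667 and 18061 CP20M in palbociclib, was not called (0.94 ± 0.20, adjusted p = 0.0531). In H2452 SPARC was already at 21722 to 35328 CP20M in DMSO, and its 24597 to 40633 CP20M in palbociclib overlapped with that (0.33 ± 0.16, adjusted p = 0.185). The responses of the 4 lines did not pass the F test (adjusted p = 0.118).

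SPP1 (ENSG00000118785, chromosome 4 from 87975667 to 87983532, plus strand) encodes osteopontin, a ligand of integrins and CD44. It was higher in 10 of 11 pairs (0.88 ± 0.15, adjusted p = 0.000445), and without the replicate block it was not called (adjusted p = 0.0762). H28 held the highest levels, with 10960, 9603 and 8440 CP20M in DMSO and 21690, 13487 and 22464 CP20M in palbociclib (0.96 ± 0.20, adjusted p = 0.0479). In MSTO-211H SPP1 was at 2927, 724 and 2089 CP20M in DMSO and at 6668, 1276 and 2948 CP20M in palbociclib. The libraries of this line overlapped across treatments, but each pair was higher with palbociclib (0.83 ± 0.16, adjusted p = 0.0450). H2052 (304 and 218 CP20M in DMSO, 533 and 682 CP20M in palbociclib) was not called (1.20 ± 0.25, adjusted p = 0.0577), nor was H2452, whose 36 to 645 CP20M in DMSO overlapped with 131 to 1009 CP20M in palbociclib. The F test among the lines gave an adjusted p of 0.733 for SPP1, the highest of the 10 genes.

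POSTN (ENSG00000133110, chromosome 13 from 37562583 to 37598844, minus strand) encodes periostin, which binds integrins, collagen and tenascin C. Among the sensitive lines it was measurable chiefly in MSTO-211H, at 132, 37 and 40 CP20M in DMSO and 243, 169 and 701 CP20M in palbociclib. These libraries did not overlap, but the pairs differed by 0.83 to 3.83 and the line was not called (2.20 ± 0.64, adjusted p = 0.0863). In H2452 the values were 11, 224 and 16 CP20M in DMSO and 5, 63 and 7 CP20M in palbociclib, lower in each pair (-0.93 ± 0.28, adjusted p = 0.0775). In DMSO and palbociclib, POSTN was at 10 CP20M or less in H2052 and at 0 or 1 CP20M in H28, where a change was not detectable at this depth. Over the 11 pairs it was higher in 4 and lower in 5 (0.36 ± 0.38, adjusted p = 0.453), and without MSTO-211H the difference was -0.33. The F test among the lines passed (adjusted p = 0.0108).

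Of the microfibril and fibulin genes, FBN1 and EFEMP1 rose over the 11 pairs and FBLN1 did not. FBN1 (ENSG00000166147, chromosome 15 from 48408313 to 48645721, minus strand) was higher in 9 of 11 pairs (1.12 ± 0.32, adjusted p = 0.0114). In MSTO-211H it was at 522, 140 and 82 CP20M in DMSO and at 1713, 617 and 1456 CP20M in palbociclib (2.58 ± 0.52, adjusted p = 0.0481). In H2052 it was at 6184 and 9705 CP20M in DMSO and at 17801 and 25026 CP20M in palbociclib (1.44 ± 0.11, adjusted p = 0.0359). In neither of these lines did the groups overlap. H28 rose from 911, 829 and 2615 CP20M to 1529, 1237 and 4539 CP20M, with overlap between experiments but not within pairs (0.70 ± 0.07, adjusted p = 0.0266). H2452 had the highest level, 21555, 58903 and 15248 CP20M in DMSO, and 15642, 49138 and 18275 CP20M in palbociclib (-0.15 ± 0.18, adjusted p = 0.522). The response differed among the lines (F test, adjusted p = 0.00535). Without MSTO-211H the FBN1 difference was 0.57, below the fold limit, and without H2052 it was 1.04 (adjusted p = 0.0505).

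EFEMP1 (ENSG00000115380, chromosome 2 from 55865967 to 55924139, minus strand) was higher in 10 of 11 pairs (0.75 ± 0.25, adjusted p = 0.0230), but was called in no single line. MSTO-211H moved furthest, from 297, 281 and 113 CP20M to 464, 975 and 1052 CP20M without overlap (1.83 ± 0.52, adjusted p = 0.0828). H2052 went from 3704 and 4264 CP20M to 5524 and 5473 CP20M, also without overlap (0.47 ± 0.10, adjusted p = 0.0571). H2452, with 10143, 30951 and 9207 CP20M in DMSO and 17085, 36499 and 14244 CP20M in palbociclib, had an adjusted p of 0.0488 at a difference of 0.54 ± 0.13, which is below the fold limit. H28 did not exceed 38 CP20M. The call was lost without MSTO-211H (0.34), without its replicate 2 (0.65, adjusted p = 0.0519) or replicate 3 (0.51), and without H2452 (0.83, adjusted p = 0.0678).

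FBLN1 (ENSG00000077942, chromosome 22 from 45502238 to 45601135, plus strand), a fibulin of basement membranes and elastic fibres that binds fibronectin, fell in H28. It was at 703, 783 and 869 CP20M in DMSO and at 477, 517 and 392 CP20M in palbociclib there, without overlap (-0.76 ± 0.15, adjusted p = 0.0429), a call that was lost with a pseudocount of 1, without a filter or without a trend. In H2052 the values lay between 550 and 687 CP20M and in MSTO-211H between 153 and 290 CP20M, with overlapping treatments. H2452 had 9 CP20M or less in every library. Over the 11 pairs FBLN1 was lower in 8 (-0.28 ± 0.12, adjusted p = 0.0754).

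None of the 10 genes was called in the resistant lines. For FN1, MPP89 was at 128870 and 86433 CP20M in DMSO and 117702 and 86050 CP20M in palbociclib, and MeT-5A at 47334 CP20M in DMSO and 43948 CP20M in palbociclib. For TNC, MPP89 was at 742 and 577 CP20M in DMSO and 677 and 441 CP20M in palbociclib, and MeT-5A at 1858 and 1736 CP20M. Treatments of MPP89 overlapped for both genes. Over the 3 pairs of resistant lines the differences of the 10 genes lay between -0.21 (THBS1) and 0.14 (SPP1), and limma called 0% of all genes higher and 0% lower, while 1258 genes and 4 of the 10 had an unadjusted p under 0.05. The response in the sensitive lines exceeded that in the resistant lines for FN1, by 2.04 ± 0.55 (adjusted p = 0.0306), and for SPARC, by 0.83 ± 0.25 (adjusted p = 0.0485). For THBS1 this difference was 1.40 ± 0.45 (adjusted p = 0.0607), and the other 7 did not pass either. Of all genes, 1.13% were called higher and 5.62% lower in this comparison, 6.75% in either direction. The FN1 call was lost in 5 of 22 alternatives and the SPARC call in 13 of 22. Some alternatives called few genes at all. With a resistant pair left out, 21 to 27 of 17803 genes were called higher, against 202 with all pairs. This comparison took pairs as units, from 4 sensitive and 2 resistant lines, and was not run with lines as units. The resistant pairs were all of 9 days. In the sensitive lines FN1 differed by 1.84 over 7 pairs of 9 days and by 2.18 over 4 pairs of 10 days. For SPARC these means were 0.65 and 1.04, and for THBS1 0.92 and 1.67. The part of duration in the result was not tested.

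After 48 h without palbociclib, FN1, THBS1, SPARC and SPP1 were called above their DMSO level over the 4 sensitive lines. None of the 10 genes was called against palbociclib. The washout libraries were compared with the DMSO and palbociclib libraries of the same experiments, 1 of each per sensitive line, with the line as a block. FN1 in H28 was at 51392 CP20M in DMSO, 308982 in palbociclib and 260916 after washout. In MSTO-211H these values were 329, 3657 and 3519 CP20M, in H2052 36465, 110055 and 90662 CP20M, and in H2452 1609, 3492 and 3668 CP20M. In each of the 4 lines the washout value lay closer to palbociclib than to DMSO. TNC in H2052 was at 799 CP20M in DMSO, 59 in palbociclib and 113 after washout, and in H2452 at 2042, 446 and 821 CP20M. In H28 TNC was at 112, 534 and 281 CP20M, so that it moved back towards DMSO in these 3 lines by 0.83 to 0.90. In MSTO-211H it was at 188, 38 and 36 CP20M.

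Against palbociclib, none of the 10 genes was called after washout, and none had an unadjusted p under 0.05, whereas 2322 of all genes had and limma called 1.4% of all genes higher and 0% lower. THBS1, SPARC, SPP1 and FBN1 were nonetheless below their palbociclib value in 4 of 4 lines, and FN1 and EFEMP1 in 3. TNC and THBS2 were below it in 2 lines, FBLN1 in 1 and POSTN in 0. The median log2 difference was -0.18 for the 10 genes and 0.09 for all genes. The FN1 difference was -0.13 with a 95% interval from -0.90 to 0.64, and that of SPARC was -0.31 with an interval from -0.66 to 0.04. For TNC it was 0.18 (interval -1.44 to 1.81). All 10 proliferation genes were called higher after washout (median log2 difference 2.41). Against DMSO, a comparison that shares its DMSO libraries with the comparison of palbociclib, 4 of the 10 genes were called higher, where 2.81% of all genes were called higher and 2.95% lower, 5.76% in either direction. They were FN1 (2.06, adjusted p = 0.00930), THBS1 (1.43, adjusted p = 0.0402), SPARC (0.73, adjusted p = 0.0197) and SPP1 (0.78, adjusted p = 0.0434). TNC (-1.22), FBN1 (1.18) and POSTN (1.19) were not called, although FBN1 was above DMSO in 4 of 4 lines. With 1 line left out in turn, 0 or 1 of the 10 genes was called higher, in fits that called 81 to 345 of 17803 genes higher. Without the line as a block none was, but that fit called 0 of all genes higher, so it says nothing about the 10 genes. FN1 lost its call without H2052 (2.30, adjusted p = 0.0502) and without H28 (1.96, adjusted p = 0.0517). THBS1 in MSTO-211H went from 363 to 3116 and 2825 CP20M, and FBN1 in H2052 from 9705 to 25026 and 14413 CP20M. Near the DMSO level after washout were THBS1 in H28 (13822 CP20M in DMSO, 14295 after washout) and SPP1 in H2452 (645 and 698 CP20M).

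**Figure D3:**
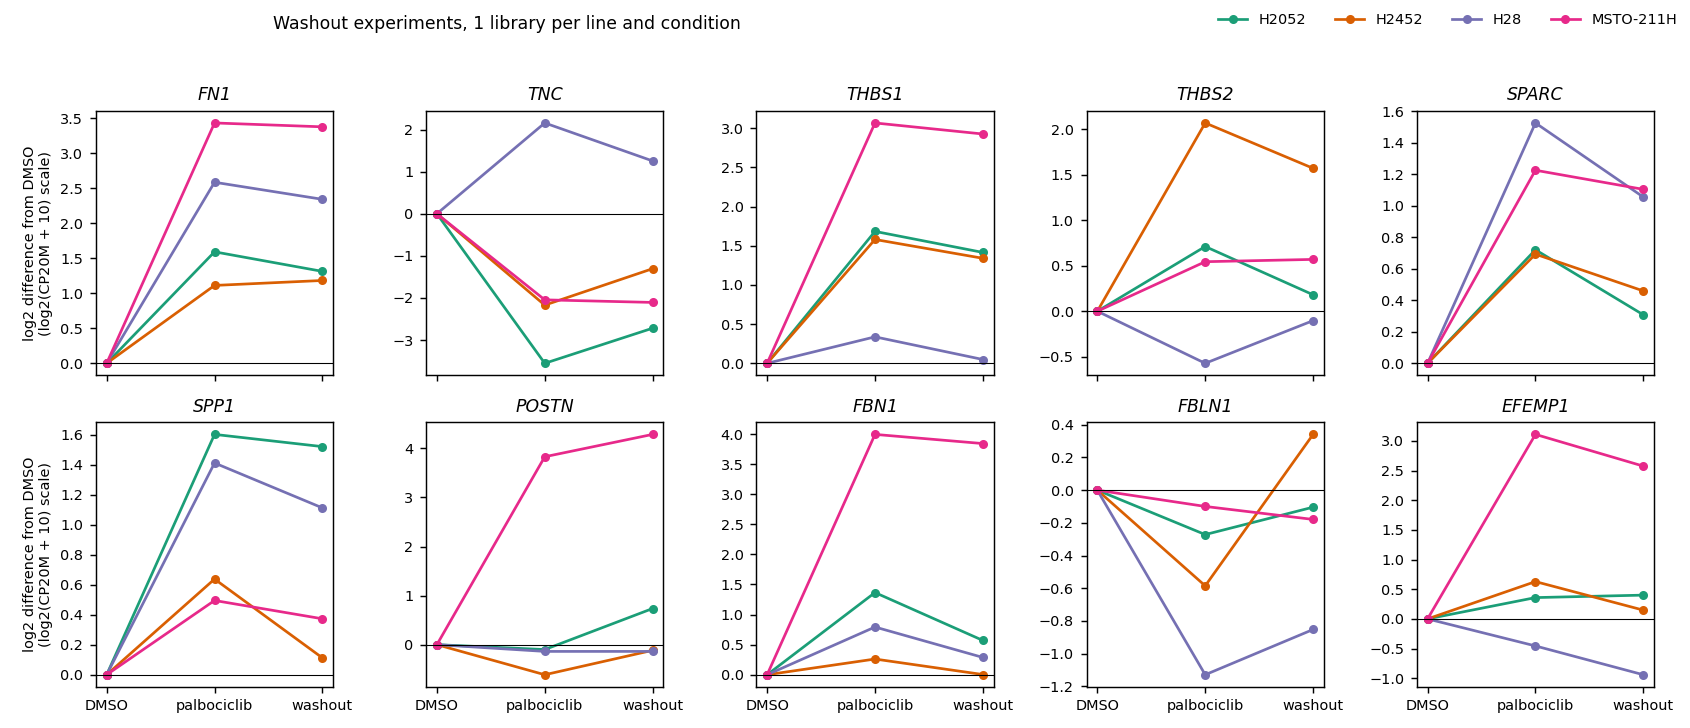
Log2 difference from the DMSO library of the same experiment (y axis, log2(CP20M + 10) scale, own range in each panel) in DMSO, palbociclib and washout libraries of the 4 sensitive lines (colored lines, 1 library per point). FN1 stays at 1.18 to 3.38 above DMSO after washout, and TNC is below DMSO in 3 lines and above it in H28.

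The levels in DMSO differed between the 6 lines for all 10 genes (F test in limma, FDR under 0.05), as they did for 95.6% of all genes. FN1 had its highest mean in MPP89, at 107652 ± 30007 CP20M (SD, n = 2), followed by MeT-5A, H2052 and H28, and neighbours in this order did not pass the test. It was lower in H2452 (2442 ± 1722, n = 3) than in H28 (adjusted p = 0.0018) and lower again in MSTO-211H (432 ± 180, n = 3, adjusted p = 0.00941). The DMSO libraries of H28 themselves lay between 5215 and 51392 CP20M. SPP1 followed another order, with H28 first (9668 ± 1261, n = 3), MSTO-211H second and MeT-5A last, at 8 CP20M. POSTN was at 12687 ± 1257 CP20M (n = 2) in MPP89 and 1905 in MeT-5A, and its mean was below 84 CP20M in each sensitive line. MPP89 also had the highest summed level of the 7 fibroblast markers, 125704 to 143457 CP20M in DMSO, against 25718 in MeT-5A and 114 to 26396 in the sensitive lines, and the part of this in the POSTN level was not tested. THBS2 and EFEMP1 had their highest mean in MPP89 and their lowest in H28, at 25 ± 20 and 21 ± 14 CP20M (n = 3), and for EFEMP1 the next line, H2452, did not differ from MPP89 beyond the spread (adjusted p = 0.456). TNC and FBN1 had their highest mean in H2452, at 3095 ± 1842 and 31902 ± 23595 CP20M (n = 3), although replicate 2 carried much of both means and TNC of H2452 did not pass the test against MeT-5A (adjusted p = 0.489). FBLN1 was at 3022 CP20M in MeT-5A, which did not pass the test against MPP89 (adjusted p = 0.281), and was lowest in H2452 (5.33 ± 0.58, n = 3). SPARC varied least, with a 21.7-fold range of line means on the CP20M + 10 scale, against 1227-fold for POSTN.

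Per kilobase of the canonical GENCODE transcript, which makes genes comparable within a line, the order of the genes differed between lines. In DMSO the highest was FN1 in MPP89, at 12831 ± 3577 CP20M per kb (SD, n = 2), ahead of SPARC at 9932 ± 306 and EFEMP1 at 7915 ± 3830, spreads that overlap. In H2452 SPARC was at 7748 ± 2166 CP20M per kb (n = 3), EFEMP1 at 6192 ± 4539 and FN1 at 291 ± 205. The spreads of SPARC and EFEMP1 overlapped, and EFEMP1 was above SPARC in replicate 2 (11429 and 10237). In H28 SPP1 was at 6193 ± 808 CP20M per kb (n = 3) and FN1 at 2963 ± 2842, with overlapping spreads, and FN1 was above SPP1 in replicate 3 (6125 and 5407). In MSTO-211H SPARC at 2301 ± 269 and THBS2 at 2151 ± 934 CP20M per kb (n = 3) did not differ beyond their spread, and FN1 was at 51.4 ± 21.4. FN1 at 4272 ± 105 led in H2052, followed by SPARC at 3535 ± 103 CP20M per kb (n = 2). In MeT-5A SPARC (7670 CP20M per kb) and FN1 (5642) were highest in the single DMSO library, and in the untreated library FN1 (5640) was above SPARC (4038).

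**Figure D4:**
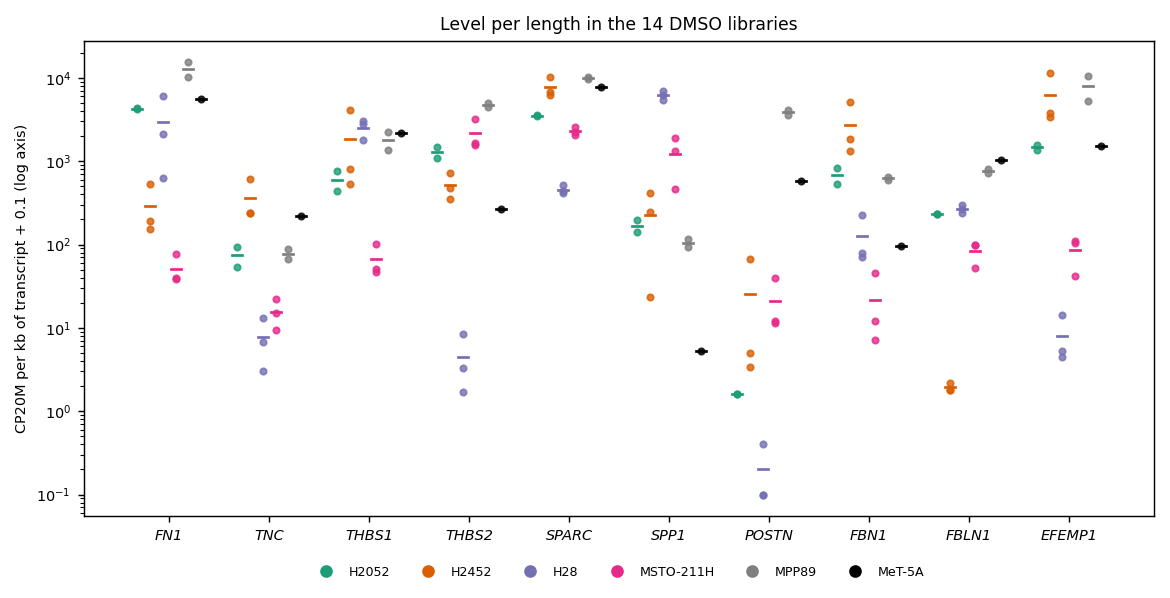
Level of the 10 genes in the 14 DMSO libraries per kilobase of the canonical transcript (y axis, CP20M per kb + 0.1, log axis), colored by line, with each library as a point and the line mean as a short bar. FN1 spans from 51.4 in MSTO-211H to 12831 CP20M per kb in MPP89, and SPARC has the narrowest spread between lines.

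Other genes of the matrix and the receptors of these proteins were read from lists chosen beside the 10 genes. Of 45 other matrix glycoproteins and proteoglycans 35 were tested, and over the 11 pairs 11 rose, 2 fell and 22 were not called, with a median log2 difference of 0.39 against -0.11 for all genes. The microfibril protein MFAP5 rose from a mean of 171 to 846 CP20M (1.84 ± 0.45, adjusted p = 0.0046, higher in 10 of 11 pairs). The elastic fibre protein FBLN5 rose by 1.77 ± 0.44 (adjusted p = 0.00453) and CTGF, a matricellular protein of the CCN family, by 1.27 ± 0.20 (adjusted p = 0.000193), each in 10 of 11 pairs. DCN (0.96), LUM (0.99), ECM1 (1.03), SPOCK1 (1.18), LTBP1 (1.10), WISP1 (0.70), MATN2 (0.74) and THBS3 (0.65) rose too, of which DCN and LUM are also fibroblast markers. Of all 7 fibroblast markers, 2 were called higher and 2 lower over the 11 pairs. The falls were FBLN7 (-1.31 ± 0.25, adjusted p = 0.000821, lower in 10 of 11 pairs) and the basement membrane linker NID1 (-0.76 ± 0.13, adjusted p = 0.000415, lower in 11 of 11).

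Of 21 receptors, mainly integrin subunits, syndecans and CD36, CD44 and CD47, 18 were tested, and 6 rose, 1 fell and 11 were not called (median 0.39). LRP1, an endocytic receptor that clears thrombospondins, rose from a mean of 9377 to 20580 CP20M (1.27 ± 0.15, adjusted p = 2.78028e-05). The integrin subunit ITGB5 rose by 1.17 ± 0.21 (adjusted p = 0.000475), and both were higher in 11 of 11 pairs. ITGA5, a subunit of the main fibronectin receptor, rose by 0.64 ± 0.13 (adjusted p = 0.00133), and ITGB3 (1.00), SDC4 (0.91) and SDC2 (0.64) rose as well. The syndecan SDC1 fell (-0.85 ± 0.29, adjusted p = 0.0272). After washout, ITGB5, LRP1, ITGA5 and SDC2 were called above DMSO, as were CTGF, NOV, ECM1 and THBS3 of the matrix list. No gene of either list was called against palbociclib.

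The 10 genes did not follow a single pattern across the 33 libraries, which include several libraries of each line. SPARC and EFEMP1 had a Pearson correlation of 0.932 on the log2 scale and THBS2 and SPARC of 0.825, whereas SPP1 ran opposite to EFEMP1 (-0.82) and SPARC (-0.746). The genes with the pattern most like FN1 were TMEM150C (0.9), TTC9 (0.897), MAP3K9 (0.896), ANKRD6 (0.885) and GRIP1 (0.881). The closest gene was CARD6 for THBS2 (0.986), CSRP2 for FBLN1 (0.973), IFIT1 for EFEMP1 (0.962), SLC9A2 for SPP1 (0.92), TGFBI for FBN1 (0.911) and RGL2 for TNC (0.891). For SPARC it was CLMAT3 (0.994), which overlaps SPARC on the opposite strand, for THBS1 it was AC037198.1 (0.998), whose position was not matched in GENCODE 44, and for POSTN it was MIR3606 (0.964), which lies within the collagen gene COL3A1. The strand setting of the counting is not given in the sources used here, so that the split of reads between SPARC and CLMAT3 is uncertain.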

How the data were processed

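RNA-seq libraries of 6 established cell lines (33 libraries) were analysed from the deposited gene matrix. According to the labels and the study's methods, the authors made directional libraries, trimmed reads with Trimmomatic 0.36, mapped them with STAR 2.5.3 to GRCh38 and counted them per gene with HTSeq 0.9.1. The deposited values are a normalized score, gene counts scaled by the authors to 20000000 reads per library (CP20M) and rounded up to whole numbers. Since these are not counts, no count model was used. Depth was estimated for 22 libraries (median 16277500), and intervals for single values were not computed.

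Here, genes with at least 100 CP20M in 1 or more libraries were kept, a filter which the study describes but which the matrix had not undergone. After a log2(CP20M + 10) transformation, linear models were fitted in limma 3.58.1 under R 4.3.3, using eBayes with a trend and the experiment as a block, as the study paired its samples (for washout, the line). P-values were adjusted by Benjamini-Hochberg over all genes tested. The F tests had no fold limit, and fold changes on this scale understate those of low genes. The pairing was checked by how the DMSO and palbociclib libraries of an experiment deviated together from their group means (r from 0.181 to 0.783 across genes). Replicates shared identical values at up to 4.33% of tested genes.

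The genes, the lists beside them and the tests were chosen with earlier results of these data known. Genes named from the lists are the 3 rises and 2 falls (receptors, 2 rises and 1 fall) with the largest change among those called over the 11 pairs, together with all other calls, named after their values were seen. The gene with the highest Pearson correlation was named for each member, and 5 for FN1. Positions and transcript lengths are from GENCODE 44 (GRCh38), a different release from the authors' annotation, and promoter windows from RefSeq matched 9 of 10 genes by symbol. Functions were tested on simulated data, with a dispersion of 0.005 and 200 changed genes in each fit. With the filter used here, the H2052 fit recovered 0% of simulated 2-fold and 4-fold changes, whereas in the data it called 3143 of 17803 genes. The fits of H2452, H28 and MSTO-211H recovered 49 to 56% of 2-fold changes and that of MPP89 27%. With the filter within the fit, 99 to 100% were recovered in these lines. These shares belong to the simulated setting, and recovery in the data themselves was not measured. A gene not called in a single line is therefore not shown to be unchanged. Figures were drawn with matplotlib 3.10.9. The alternatives changed the pseudocount (1 or 50), the filter (none, or applied within the libraries of a fit), the scaling (median-of-ratios, upper-quartile), the trend, the replicate block and the units (line means), or left out pairs and lines.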

Additional observations from a re-analysis of the deposited data

Results flagged for a closer look

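The response to palbociclib differed between the pairs of the sensitive and of the resistant lines by a limma test of the difference itself for FN1 (adjusted p = 0.0306) and SPARC (adjusted p = 0.0485). The units were 11 and 3 pairs from 4 sensitive and 2 resistant lines. The test was not run with lines as units, so it does not measure the spread between lines alone. In the sensitive lines FN1 was higher in 11 of 11 pairs and SPARC in 11 of 11, and in the resistant lines the pairs differed by -0.13 to -0.01 for FN1 and by -0.16 to 0.03 for SPARC on the log2 scale.

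Among the 4 sensitive lines the responses differed for TNC (adjusted p = 0.000252), FN1 (adjusted p = 0.00172), FBN1 (adjusted p = 0.00535), POSTN (adjusted p = 0.0108), THBS1 (adjusted p = 0.0388) and THBS2 (adjusted p = 0.0485), in a limma F test that 37.1% of all genes passed. TNC rose in 3 of 3 pairs of H28 and fell in 8 of 8 pairs of the other lines. FN1 ranged from 0.57 in H2452 to 2.77 in H28, and FBN1 from -0.15 in H2452 to 2.58 in MSTO-211H. POSTN was at 2.20 in MSTO-211H and -0.93 in H2452, THBS1 at 1.98 in MSTO-211H and 0.28 in H28, and THBS2 at 1.54 in H2452 and 0.09 in MSTO-211H.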

How the results depend on the processing

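Of 1695 alternative values of single genes, 1503 kept their direction and side of the threshold, 148 lost the call, 28 gained it and 16 changed direction, and 249 of 300 counts stayed within 1.5 times. Over the 11 pairs, FN1, THBS1 and SPARC were called in all 24 alternatives. SPP1 lost its call in 1 of them, FBN1 in 3, THBS2 in 5 and EFEMP1 in 5. Of the 10 genes, 4 were called higher there with line means as units, where 482 of 17803 genes were called higher. Between 5 and 7 (0 to 1 lower) were called higher with a pair or line left out. In H2052 the count called higher was 1 with a pseudocount of 1, 1 without a filter and 0 without a trend, and that called lower was 0 without a trend. Without the replicate block, 1 was called higher and 0 lower in H2452 (3.65% and 8.72% of all genes), and 2 were called higher in H28 (3.81%). In H2452, 2 were called lower with a pseudocount of 1 (10.8% of all genes). In H28, 0 were called lower with a pseudocount of 1, without a filter or without a trend (6.44%, 2.74% and 6.91% of all genes). In MSTO-211H, 1 was called higher with a pseudocount of 1 (5.3% of all genes) and 1 without a filter (1.3%). There, 1 was called higher without a trend (5.27%) and 7 with the filter within the fit (9.29%). Leaving out pairs gave 0 to 0 called higher in these 3 lines, 0 to 1 lower in H2452 and 0 lower in H28, but 8 of these 9 fits called none of all genes, so that no member could pass. In H2052 and MPP89 this leaves 1 pair, which could not be fitted.

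For the difference between sensitive and resistant lines the count was 0 without a filter (105 of 47089 genes called higher) and 1 without a trend (177 of 17803). It was 0 without the replicate block (142 of 17803) and 0 to 3 with pairs or lines left out. Without a pair of MPP89 or MeT-5A, 21 to 27 of 17803 genes were called higher, against 202 in the main fit. Among the sensitive lines, 1 gene passed the F test without the replicate block and 4 to 7 with pairs left out. Without the block 2612 of 17803 genes passed, against 6601 in the main fit. After washout against DMSO, 2 were called higher without a filter (302 of 43844 genes) and 2 without a trend (433 of 17803). Without the replicate block 0 were, but 0 of all genes were called higher in that fit. With a line left out, 0 to 1 were called higher (81 to 345 of 17803 genes) and 0 to 1 lower. The block changed no other count by over 1.5 times. The direction of FBLN1 in H2052 changed to 0.16 with median-of-ratios and 0.0801 with upper-quartile scaling, and that of FBN1 in H2452 to 0.0363 with median-of-ratios scaling. Leaving out pairs or lines turned the direction within a range for POSTN over the 11 pairs (-0.33 to 0.846), in H28 for THBS2 (-0.0852 to 0.642), POSTN (-0.0688 to 0) and EFEMP1 (-0.20 to 0.325), in MSTO-211H for THBS2 (-0.13 to 0.538) and FBLN1 (-0.0894 to 0.0970), in the resistant lines for SPARC (-0.0743 to 0.0226) and FBLN1 (-0.0389 to 0.0411), after washout against palbociclib for TNC (-0.0433 to 0.546), and against DMSO for FBLN1 (-0.378 to 0.0194) and EFEMP1 (-0.13 to 1.04). The cause was not tested. Depth limits POSTN in H28 and H2052 and FBLN1 in H2452, which were at few or no reads.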
